A study of Rattus norvegicus with 26 samples.

Results

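The comparison sets the thoracic aortas of rats given valsartan against those of rats given the higher dose of Songling Xuemaikang Capsule (SXC), a Chinese herbal preparation taken for hypertension. Its members were chosen by the sample titles alone and are 12 of the 26 arrays of the series, 6 for each drug. All animals were male SHR, the spontaneously hypertensive rat strain. The valsartan group received 21.6 mg/kg by mouth and the high-dose SXC group 708.75 mg/kg by mouth, in each case for 4 weeks, and tissue was taken at day 28. SXC was given in the morning and again around noon and valsartan in the afternoon, and the labels do not state at which hour the aortas were collected. The other 14 arrays came from 8 rats given saline (7.5 mL/kg) and 6 given the low SXC dose (236.25 mg/kg). The labels put 8 rats in the valsartan group, and 6 arrays of it were analysed here. RNA was extracted from each aorta separately, so every array stands for 1 rat. No normotensive strain was included in the groups compared.

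Valsartan blocks the angiotensin II type 1 receptor. Setting it beside SXC asks in which genes a herbal treatment and a reference drug leave the hypertensive vessel wall in different states. The 3 smallest adjusted p-values of the comparison belonged to genes of the circadian clock. In that clock the proteins of Bmal1 (formerly Arntl) pair with those of Clock or Npas2, bind E-boxes and switch on the Per and Cry genes, whose proteins then repress their own activators. A second loop, in which Rev-erb repressors (Nr1d1, Nr1d2) and ROR activators compete for a shared element, sets the level of Bmal1, and output factors such as Dbp and Tef carry the rhythm through D-boxes to other genes. The clock runs in smooth muscle and endothelium as well as in the brain, so its messenger levels in an artery depend on the hour at which the tissue is taken.

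Promoters of 6 of the 8 clock genes called below were matched by symbol in RefSeq (build GRCr8), the others being Cry1 and Wee1. They were searched over the 250 bases before the annotated start, on both strands, for the E-box CACGTG, its variant CACGTT (E-prime box), the D-box TTANGTAA and the ROR element ANTAGGTCA. Of all 33469 promoter windows of that length, 5.59% held the E-box, 4.07% the E-prime box, 2.04% the D-box and 0.568% the ROR element. The 4 called genes with a match are shown because they stand on opposite sides of the comparison, Bmal1 lower and the other 3 higher under valsartan. Capitals mark the matched letters, none of which overlapped another match.
Bmal1: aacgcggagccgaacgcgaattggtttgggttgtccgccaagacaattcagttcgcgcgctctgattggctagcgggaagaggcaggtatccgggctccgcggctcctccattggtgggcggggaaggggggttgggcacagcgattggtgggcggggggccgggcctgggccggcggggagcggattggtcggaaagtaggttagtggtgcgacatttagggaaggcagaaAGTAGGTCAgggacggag
Per2: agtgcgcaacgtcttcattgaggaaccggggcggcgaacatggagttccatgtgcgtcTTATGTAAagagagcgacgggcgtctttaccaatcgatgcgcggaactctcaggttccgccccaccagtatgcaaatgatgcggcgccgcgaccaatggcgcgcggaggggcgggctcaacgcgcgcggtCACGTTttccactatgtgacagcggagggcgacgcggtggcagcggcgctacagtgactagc
Ciart: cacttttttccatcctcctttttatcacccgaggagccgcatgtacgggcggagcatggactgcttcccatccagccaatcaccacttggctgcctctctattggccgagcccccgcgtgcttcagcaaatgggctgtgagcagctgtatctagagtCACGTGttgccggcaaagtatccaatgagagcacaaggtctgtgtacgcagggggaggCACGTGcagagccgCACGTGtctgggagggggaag
Tef: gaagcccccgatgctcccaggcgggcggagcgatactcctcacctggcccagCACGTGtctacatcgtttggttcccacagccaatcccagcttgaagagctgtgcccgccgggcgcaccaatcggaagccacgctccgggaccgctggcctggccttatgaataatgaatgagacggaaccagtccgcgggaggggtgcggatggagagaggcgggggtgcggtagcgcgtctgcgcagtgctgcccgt
The Bmal1 window (chr1:176766078-176766327, plus strand) held the ROR element, its first base 18 bases before the start. The Per2 window (chr9:99496994-99497243, minus strand) held the D-box 192 bases and the E-prime box 62 bases before the start. The Ciart window (chr2:186112247-186112496, minus strand) held 3 E-boxes, at 93, 35 and 21 bases, and the Tef window (chr7:115206577-115206826, plus strand) held 1 at 198 bases. None of these letters occurred in the windows of Clock and Npas2. Windows of Nr1d1, Bhlhe40 and Cry2, clock genes that were not called, also held an E-box or E-prime box. Their differences were negative, at -0.66, -1.02 and -0.58. A match is a description of the letters and not a measured binding site.

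Labelled RNA was hybridised to 1-colour rat gene expression arrays. A level below is the log2 signal of a probe minus the 75th percentile of its array, so that a level of 0 lies at that percentile and a difference of 1 is a doubling. The 12 arrays were not equally bright. The share of gene probes well above background was between 28.7% and 79.3% on the high-dose arrays, with a median of 62.2%, and between 32.4% and 56.5% on the valsartan arrays, with a median of 43.7%. The means differed by -14.8 percentage points (two-sided exact permutation test, p = 0.106, n = 6 against 6, smallest possible p = 0.0022). With 6 arrays each, this p does not show that the groups were equally bright. High-dose arrays 1, 2 and 4, at 79.3%, 72.0% and 68.6%, lay above every valsartan array. High-dose arrays 1 and 2 were scanned at a higher detector gain than the other 10 arrays (353 V against 323 or 325 V), and high-dose arrays 3 and 6 shared the scan day of all valsartan arrays. The 8 saline arrays were scanned at 354 V on a day that held no other group. Their share well above background was between 67.3% and 76.2%. Where saline is set beside a drug below, treatment cannot be told apart from scan day or slide. The low-dose arrays were scanned at 353 or 354 V on days that held no valsartan array. Low-dose levels set beside valsartan below therefore carry the same limit, and that of gain. High-dose array 3 and valsartan array 1 were the dimmest of their groups and lay farthest out on the first principal component of the 12 arrays, which held 26.6% of the variance. A difference within the shared scan day, given below, sets the 6 valsartan arrays against high-dose arrays 3 and 6 alone. Its spread is taken from all groups, so its calls and lost calls rest on few high-dose arrays, the dimmest among them. All 6 defining smooth muscle markers were well above background on all 12 arrays and the summed marker level was between 7.28 and 7.78 under SXC and between 7.25 and 7.82 under valsartan.

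**Figure D1:**
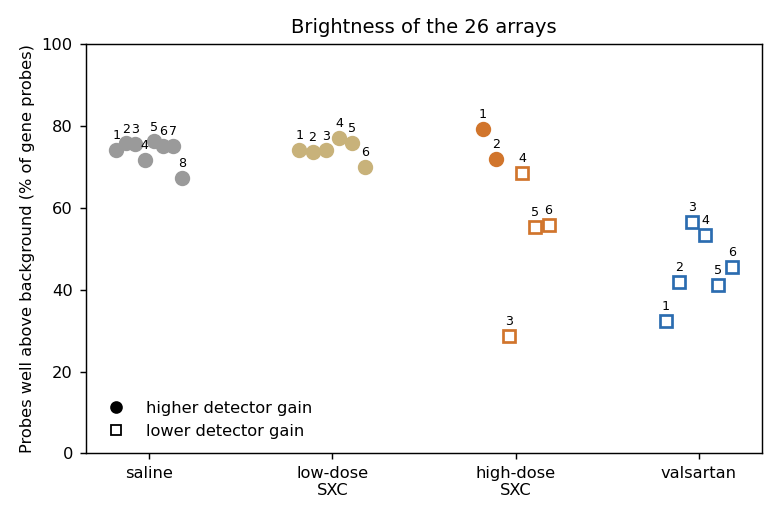
Share of gene probes well above background (vertical axis, percent) on each of the 26 arrays by group, with the replicate number beside each point, filled circles for the higher and open squares for the lower detector gain. The valsartan arrays lie between 32.4% and 56.5%, and the high-dose arrays spread from 28.7% to 79.3%.

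Of 23744 probes tested with limma over all 26 arrays, 232 (0.977%) were called, meaning a Benjamini-Hochberg adjusted p under 0.05. Of these, 38 (0.16%) were higher and 194 (0.817%) lower under valsartan than under high-dose SXC. Taking the brightest probe of each named gene, 124 of 12240 genes (1.01%) were called, 27 (0.221%) higher and 97 (0.792%) lower. Of the probes called, 32 of the 38 higher probes were well above background on all 6 valsartan arrays, while 53.6% of the 194 lower probes were well above background on none of them, against 21.1% of all probes tested. Over all probes tested the median difference was -0.05. The lower calls therefore sit mostly among dim probes, as the plot of difference against mean level shows, and the part of array brightness in them was not tested. Of the 232 calls, 61 (12 higher and 49 lower) held in each of the 12 fits that left out 1 array. With only the 12 arrays in the fit the count was 3 (0.0126%), and with slide as a random block it was also 3 (0.0126%). The median probe SD was 0.59 within the high-dose and 0.56 within the valsartan arrays, against 0.37 within saline and 0.26 within low-dose SXC, so the pooled spread was smaller than the spread of the arrays compared.

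**Figure D2:**
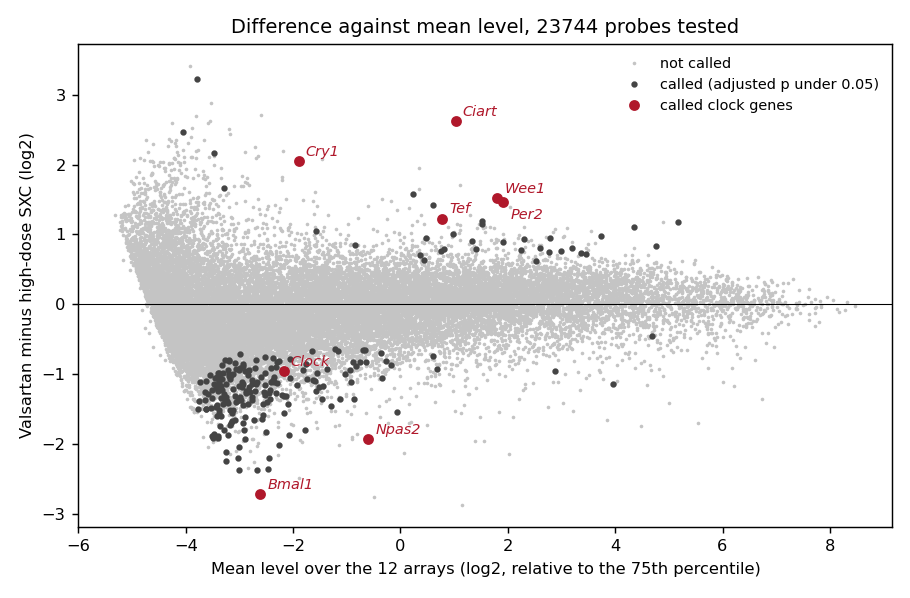
Log2 difference, valsartan minus high-dose SXC (vertical axis), against the mean level over the 12 arrays (horizontal axis, log2) for the 23744 probes tested. Dark points are called probes and red points the 8 called clock genes. Most lower calls lie at mean levels below 0, whereas the higher calls spread over the range.

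In the clock list 8 of the 17 genes tested were called, 5 higher and 3 lower under valsartan, against 1.01% of all genes tested. The repressors Per2, Cry1 and Ciart and the outputs Tef and Wee1 were higher, and the activators Bmal1, Npas2 and Clock were lower. All 8 calls held in each of the 12 fits that left out 1 array. The median difference over the 17 genes was -0.16, against -0.01 over all genes, because the members moved in opposite directions. Levels did not overlap between the drugs for 5 of the 17 genes, 4 higher and 1 lower, against 0.94% of all genes.

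Per2 encodes a period protein that represses the Bmal1 complexes. Its level was between 0.85 and 1.35 on the high-dose arrays, with a median of 1.24, and between 2.32 and 3.07 on the valsartan arrays, with a median of 2.55. Every valsartan array lay above every high-dose array. The difference was 1.46 ± 0.15 (log2 ± SE, n = 6 against 6), or 2.75-fold, with an adjusted p of 5.03e-06 (limma). Group means were 1.19 ± 0.19 under high-dose SXC and 2.65 ± 0.28 under valsartan (SD, n = 6 each), with 1.97 ± 0.19 in saline (SD, n = 8) and 0.96 ± 0.26 in low-dose SXC (SD, n = 6).

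Ciart, the gene of a transcriptional repressor that acts on the Bmal1 and Clock pair, differed most among the clock genes that were called higher. The high-dose arrays ran from -0.87 to 0.76 with a median of -0.41, and the valsartan arrays from 1.96 to 2.76 with a median of 2.31. The groups did not overlap, and every valsartan array exceeded the highest high-dose array, number 4. The difference was 2.62 ± 0.32, or 6.15-fold (adjusted p = 9.56e-05, limma). Saline lay lower, at -1.0 ± 0.65 (SD, n = 8), and the low dose lowest, at -2.10 ± 0.63 (SD, n = 6).

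Cry1 encodes a cryptochrome, the partner of the period proteins in repression. Its level ran from -3.31 to -2.52 with a median of -2.93 on the high-dose arrays and from -2.26 to -0.17 with a median of -0.70 on the valsartan arrays. The groups did not overlap, although valsartan array 1, the dimmest of its group, came close to the SXC values. The difference was 2.05 ± 0.25, or 4.15-fold (adjusted p = 9.56e-05, limma). The probe was well above background on 4 high-dose and 5 valsartan arrays, so the size is uncertain. It was 1.39 with normexp background correction and 2.87 with quantile normalisation. The saline mean of -0.06 ± 0.33 (SD, n = 8) lay above both drugs, and the low-dose mean of -2.24 ± 0.29 (SD, n = 6) lay nearer to high-dose SXC.

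Among the outputs, Wee1 encodes a kinase that restrains entry into mitosis and is driven through E-boxes. It ran from 0.58 to 1.60 under high-dose SXC and from 1.84 to 3.24 under valsartan, with medians of 1.05 and 2.59. The groups did not overlap. The difference was 1.52 ± 0.29 (adjusted p = 0.0123, limma), and within the shared scan day it was 1.06 with an adjusted p of 0.197. Tef, a D-box activator, ran from -0.30 to 0.57 with a median of 0.18 under high-dose SXC and from 0.53 to 2.24 with a median of 1.39 under valsartan. Only the lowest valsartan array fell within the SXC range. The difference was 1.23 ± 0.23, or 2.34-fold (adjusted p = 0.0119, limma). Dbp, a second D-box activator, missed the threshold on its brightest probe, with levels of 3.83 to 5.40 and 5.07 to 5.91, a difference of 1.18 ± 0.30 and an adjusted p of 0.0502 (limma). High-dose array 4 was its highest SXC value. Of the 2 further Dbp probes, 1 gave 1.58 with an adjusted p of 0.0157 and the other 1.09 with 0.0628, so the probes of this gene fell on both sides of the threshold.

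Bmal1, the activator on which both loops of the clock depend, was lower under valsartan. Its levels on high-dose arrays 1 to 6 were -0.18, -0.87, -1.43, -3.37, -1.39 and -0.31. On valsartan arrays 1 to 6 they were -3.34, -2.47, -4.80, -4.05, -4.36 and -4.82. High-dose array 4 lay among the valsartan values, and the other 5 high-dose arrays lay above all of them. No valsartan array was well above background for this probe, so the size is a bound: the level was at least 2.3-fold lower under valsartan, with a measured difference of -2.72 ± 0.42 and an adjusted p of 0.00264 (limma). A bound of this kind sets the mean of the brighter group against the dimmest signal counted as well above background on each array of the other, or the probe's own signal where that is higher. It applies to the signal used here and leaves out the error of that mean. With normexp background correction the Bmal1 difference, given below, fell short of its bound. Saline and low-dose SXC lay higher than both drugs, at 0.19 ± 0.54 (SD, n = 8) and 0.48 ± 0.27 (SD, n = 6). A second, dimmer Bmal1 probe was well above background on 2 high-dose arrays and on no valsartan array, was not called (adjusted p = 0.244, limma), and gives no usable size.

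Npas2, the alternative partner of Bmal1, ran from -0.35 to 0.96 with a median of 0.48 under high-dose SXC and from -2.15 to 0.00 with a median of -1.84 under valsartan. Valsartan array 6 stood apart at 0.00 and lay within the SXC range, while the other 5 were at -1.59 or lower. The difference was -1.93 ± 0.33 (adjusted p = 0.00689, limma). Clock ran from -2.26 to -1.28 with a median of -1.69 under high-dose SXC and from -3.13 to -2.37 with a median of -2.55 under valsartan, without overlap. Its difference was -0.95 ± 0.19 (adjusted p = 0.0157, limma), and only 2 valsartan arrays were well above background for it. The second probe of Npas2 differed by -0.38 (adjusted p = 0.523), and it was well above background on 5 high-dose and 2 valsartan arrays. The second probe of Clock was not called either (adjusted p = 0.48) and was well above background on 4 high-dose arrays and on no valsartan array.

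The other clock genes tested were not called. Per1, the period gene that also answers to glucocorticoids, differed by -0.16 with a 95% interval of -0.76 to 0.43, and Per3 by 0.21 with an interval of -0.37 to 0.79. Nr1d1, the Rev-erb-alpha repressor of Bmal1, differed by -0.66 with an interval of -1.30 to -0.02 and an adjusted p of 0.298, and its relative Nr1d2 by 0.66 with an interval of 0.17 to 1.15 and an adjusted p of 0.17 (limma). Cry2 differed by -0.58 (adjusted p = 0.166), Nfil3, a D-box repressor, by -0.78 (0.297), and Bhlhe40, an E-box repressor, by -1.02 (0.26). At an unadjusted p under 0.05, 7 clock genes were higher and 7 lower, against 6.76% and 9.05% of all genes.

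How far the clock calls held depended on the arrays in the fit. Without the higher-gain high-dose arrays 1 and 2 the clock counts were again 5 higher and 3 lower, against 1.43% and 2.91% of all genes, and within the shared scan day they were 4 and 2, against 0.286% and 1.29%. With the 12 arrays alone only Per2 and Ciart were called (adjusted p = 0.00441 and 0.00221, limma; 0.0163% of all genes called higher) and the adjusted p of Cry1 was 0.0769, while with slide as a random block Per2, Cry1 and Ciart were called (0.0245% of all genes called higher). The activators lost their calls in both, with adjusted p of 0.178 and 0.0671 for Bmal1, 0.131 and 0.139 for Npas2 and 0.329 and 0.182 for Clock. With normexp background correction Per2, Cry1 and Ciart were still called, and the other 5 were not. The difference then shrank to -1.09 for Bmal1 (adjusted p = 0.149), to -1.33 for Npas2 (0.101) and to -0.21 for Clock (0.541, limma), while it was 1.0 for Tef (0.0959) and 1.28 for Wee1 (0.101). The drugs were given at different hours, so drug and dosing hour cannot be told apart in any clock gene.

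**Figure D3:**
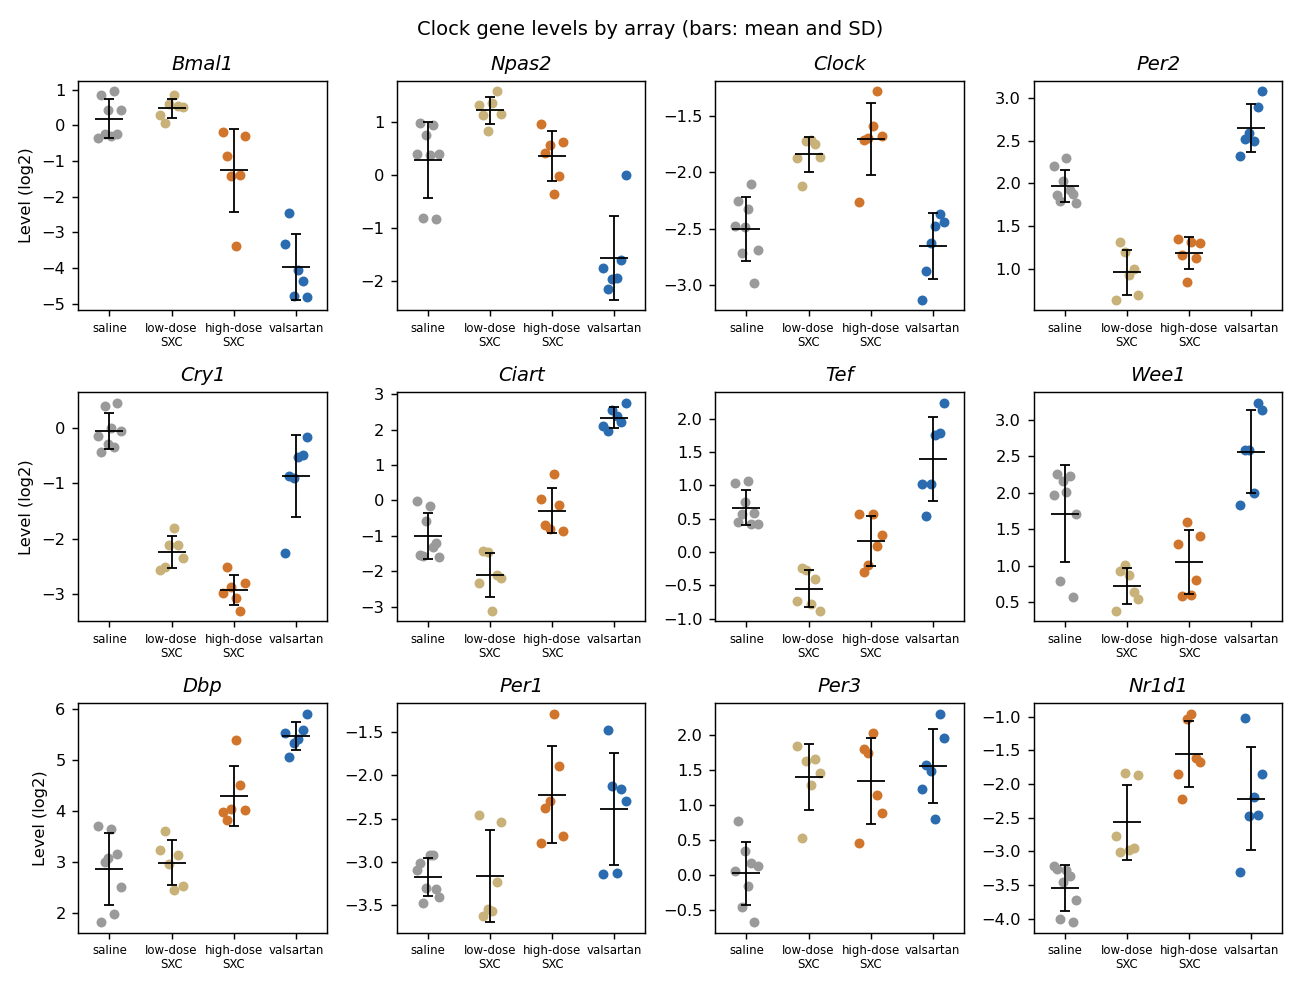
Levels of 12 clock genes (vertical axes, log2 relative to the 75th percentile of the array) on each array of the 4 groups, with horizontal bars for the mean and whiskers for the SD. Per2, Cry1, Ciart and Wee1 lie higher on all 6 valsartan arrays than on any high-dose array, and Clock lies lower. Bmal1 and Npas2 overlap through 1 array each.

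Outside the clock, Herpud1, whose product works in the degradation of misfolded proteins at the endoplasmic reticulum, ran from 1.93 to 2.91 under high-dose SXC and from 2.92 to 3.52 under valsartan. The groups came close but did not overlap. The difference was 0.95 ± 0.15, or 1.93-fold (adjusted p = 0.00264, limma), and it was called in all 12 fits that left out 1 array. The saline mean was 3.60 ± 0.15 (SD, n = 8), closer to valsartan (3.25 ± 0.24) than to high-dose SXC (2.30 ± 0.34).

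Fmo2, a flavin-containing monooxygenase, ran from 3.60 to 4.15 under high-dose SXC and from 4.33 to 5.54 under valsartan. Chrdl1, a secreted antagonist of bone morphogenetic proteins, ran from 1.27 to 1.71 and from 1.83 to 2.69. Neither gene overlapped between the drugs. Their differences were 1.11 ± 0.21 (adjusted p = 0.0136) and 0.90 ± 0.18 (adjusted p = 0.0157, both limma), and both were called in all 12 fits that left out 1 array. Within the shared scan day Fmo2 missed the threshold (1.03, adjusted p = 0.0823) and Chrdl1 was called (0.98, adjusted p = 0.0408). Adamts1, a secreted metalloproteinase that cleaves versican, ran from 3.91 to 5.58 under high-dose SXC and from 5.02 to 6.29 under valsartan. High-dose array 1 lay within the valsartan range. The difference was 1.18 ± 0.27 (adjusted p = 0.0349, limma), and within the shared scan day 0.98 with an adjusted p of 0.246. The 4 further genes of this set were Cys1, a protein of the primary cilium, Cdc14a, a phosphatase, Coq10b, a coenzyme Q binding protein, and Psip1, a chromatin-bound coactivator. They differed by 0.85 to 1.15 and overlapped between the drugs.

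Pmepa1, a target of TGF-beta whose membrane protein damps that signal, was lower under valsartan. It ran from 3.84 to 4.94 with a median of 4.59 under high-dose SXC and from 2.87 to 4.14 with a median of 3.28 under valsartan. High-dose array 6 and valsartan array 2 made the groups overlap. The difference was -1.14 ± 0.19, a 2.2-fold lower level under valsartan (adjusted p = 0.00348, limma), and it was called in all 12 fits that left out 1 array as well as with normexp correction. Within the shared scan day it was -0.71 with an adjusted p of 0.133. Smad7, the inhibitory Smad that TGF-beta also switches on, ran from 2.95 to 3.88 under high-dose SXC and from 1.73 to 2.94 under valsartan. The groups came close without overlapping. The difference was -0.96 ± 0.24 (adjusted p = 0.0483, limma), and it was called in 4 of the 12 fits that left out 1 array. Without high-dose arrays 1 and 2 it was -0.82 with an adjusted p of 0.0722, and within the shared scan day -0.77 with 0.314. Of 15 TGF-beta signalling genes tested, 1 (Smad7) was called, against 1.01% of all genes. The ligands Tgfb2 and Tgfb3 differed by 0.43 and -0.26 and were not called, and Tgfb1 was well above background on only 2 high-dose arrays and 1 valsartan array.

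Several other lower genes were close to background. Pla2g7, which encodes the lipoprotein-associated phospholipase that degrades platelet-activating factor, was well above background on all 6 high-dose arrays and on no valsartan array, and its level was at least 1.2-fold lower under valsartan (measured difference -2.12 ± 0.42, adjusted p = 0.0157, limma). High-dose array 3 stood apart at 0.42, above the -3.37 to -2.04 of the others. Taar7b, a trace amine receptor, Ebf1, a transcription factor of B cells and fat, and Or1e32, an olfactory receptor, were likewise well above background on no valsartan array. On the signal used here their bounds were 1.68-fold, 1.29-fold and 1.35-fold lower. With normexp correction none of these 4 genes was called, and the differences were -0.52 for Pla2g7, -0.47 for Taar7b, -0.35 for Ebf1 and -0.13 for Or1e32. The bounds of Taar7b, Ebf1 and Or1e32 therefore did not hold under that correction. High-dose array 3, the dimmest of the 12, was the highest for each of these 4 genes and raised the means behind their bounds. Array 3 was also the highest high-dose array for 45 of the 194 probes called lower (23.2%), and array 4 for 55 (28.4%). The same shares over all probes tested were not taken, so these counts cannot be read as particular to the lower calls.

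Cnpy4, Dedd and Pxmp4 differed by -1.46, -1.35 and -0.99 and did not overlap between the drugs, as held for 0.94% of all genes. High-dose array 3 was the highest for each, and only 4, 4 and 3 valsartan arrays were well above background. With normexp correction they differed by -0.53, -0.70 and -0.35 and none was called (adjusted p = 0.334, 0.21 and 0.398, limma). Within the shared scan day Dedd and Pxmp4 were called and Cnpy4 was not (adjusted p = 0.0826, limma). Cnpy4 encodes a chaperone of Toll-like receptors, Pxmp4 a peroxisomal membrane protein and Dedd a death-effector-domain protein. Il11, a cytokine of the interleukin-6 family, ran from -1.86 to -0.51 under high-dose SXC and from -2.48 to -1.20 under valsartan, and differed by -1.19 ± 0.28 (adjusted p = 0.0349, limma). In Il11, high-dose array 6 lay among the valsartan values and valsartan array 2 among the SXC values. Fxyd7, a regulator of the sodium pump, differed by -0.86 ± 0.18 (adjusted p = 0.0207, limma). Il11 was called in 5 and Fxyd7 in 8 of the 12 fits that left out 1 array. Neither was called within the shared scan day (adjusted p = 0.281 and 0.122) or with normexp (0.262 and 0.149, limma).

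**Figure D4:**
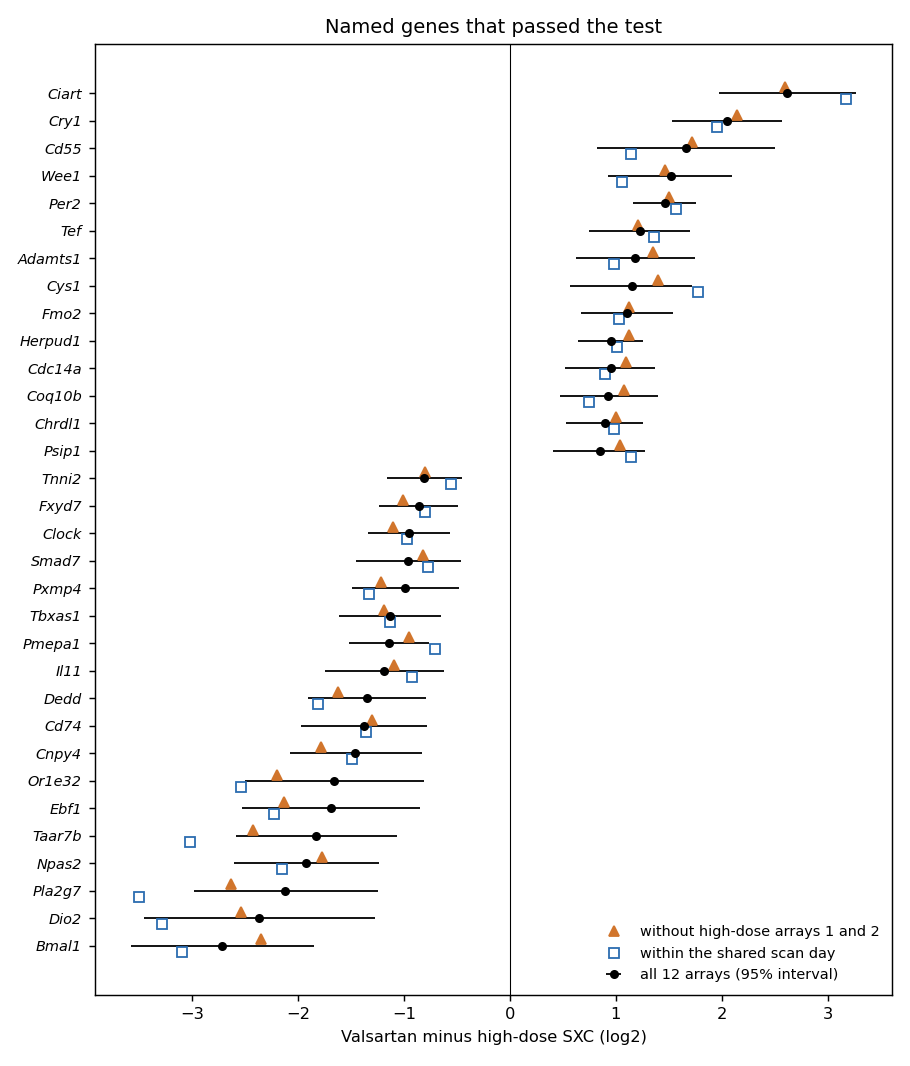
Log2 difference, valsartan minus high-dose SXC (horizontal axis), for the called genes named in the text, with 95% intervals as bars. Triangles give the difference without high-dose arrays 1 and 2 and squares the difference within the shared scan day. All 3 estimates of each gene lie on the same side of 0. Genes chosen for the largest differences had to be called with the same sign without high-dose arrays 1 and 2. That rule fixed the side of their triangles.

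The renin-angiotensin system, on which valsartan acts, held no call among 14 genes tested, where 1.01% of all genes were called, and its median difference was -0.12. Within the shared scan day, against high-dose arrays 3 and 6 alone, 1 of the 14 was called, Nr3c2, the mineralocorticoid receptor. Its difference there was 0.85 (adjusted p = 0.0469, limma), where 0.286% of all genes were called higher. With all arrays it was 0.40 (adjusted p = 0.277, limma). Agtr1a, the main type 1 receptor of rat smooth muscle, ran from -2.74 to -1.03 under high-dose SXC and from -2.18 to -1.28 under valsartan. The valsartan range lay within the SXC range. The difference was -0.12 with a 95% interval of -0.58 to 0.34. Agtr1b, the second type 1 receptor gene of the rat, ran from 0.53 to 1.53 and from 1.25 to 2.15, a difference of 0.62 with an interval of 0.08 to 1.17 and an adjusted p of 0.243 (limma). Saline means were 0.77 ± 0.24 for Agtr1a, above every array of both drugs, and -1.09 ± 0.63 for Agtr1b, below every such array (SD, n = 8). The interval for Ace, the converting enzyme, was -0.74 to 0.16 and for the substrate Agt -1.99 to 0.47. The chymase gene Cma1 was well above background on 3 high-dose arrays and on no valsartan array, so no size is given for it.

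No gene of the contractile apparatus passed the test. The 19 smooth muscle genes tested were not called, and their differences lay between -0.27 and 0.34 around a median of 0.06. Over all genes 1.01% were called, so this count and those below for other lists are near that share. Myh11, the smooth muscle myosin heavy chain, ran from 5.35 to 5.83 under high-dose SXC and from 5.27 to 5.82 under valsartan, with an interval of -0.28 to 0.38 for the difference. For Acta2, smooth muscle actin, the interval was -1.10 to 0.55. In the matrix, Col1a1 differed by -0.08 (interval -0.49 to 0.32) and Eln, which encodes elastin, by -0.02 (interval -0.43 to 0.39). None of 10 collagens and none of 16 elastic fibre and crosslinking genes was called. Adamts1 was the only 1 of 15 metalloproteinase and inhibitor genes called. Nos3, the endothelial nitric oxide synthase, differed by -0.46 with an interval of -1.0 to 0.08, and the probe was well above background on no valsartan array. Among 23 ion channel and calcium genes of smooth muscle none was called, and Stim1, the calcium store sensor, had the lowest adjusted p at 0.0686 with a difference of 0.63 ± 0.17.

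Of the fat genes tested, 1 passed the test, where 1.01% of all genes did. Aortas carry perivascular fat, brown in the thorax of rats, and in a whole-tissue extract fewer cells of a type and less RNA per cell cannot be told apart. None of 18 white fat genes was called, their median difference was -0.77 and 16 of the 18 differences were negative. The mean level of the white fat list was between -0.05 and 0.44 on high-dose arrays 2 to 6, -1.18 on high-dose array 1 and between -1.26 and -0.46 on the valsartan arrays. High-dose array 1 thus lay among the valsartan arrays and the other 5 above all of them. Adipoq, the adiponectin gene, ran from 1.87 to 4.45 under high-dose SXC and from 0.86 to 3.65 under valsartan, a difference of -1.12 with an interval of -2.43 to 0.20. In the brown fat list the median was -0.75, 8 of 9 differences were negative and 1 gene was called. That gene was Dio2, the deiodinase that activates thyroid hormone, which was well above background on 5 high-dose arrays and on no valsartan array. On the signal used here it was at least 1.56-fold lower under valsartan (adjusted p = 0.0313, limma). High-dose arrays 1 and 4, both at -3.22, came close to valsartan array 1 at -3.24. Dio2 was called in 6 of the 12 fits that left out 1 array. With normexp its difference was -0.70 (adjusted p = 0.404, limma). Ucp1, the uncoupling protein that defines brown fat, differed by -1.35 with an interval of -3.22 to 0.53. Of 24 fatty acid oxidation genes 20 had negative differences and none was called. The summed level of the defining brown fat markers was between 4.41 and 6.38 under high-dose SXC and between 3.75 and 4.75 under valsartan, and its part in the calls was not tested.

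No cell cycle gene was called, where 1.01% of all genes were. The median difference was 0.50, 17 of the 19 differences were positive, and 8 of the 19 were higher at an unadjusted p under 0.05, against 6.76% of all genes. The mean level of the list was -0.17 and 0.01 on valsartan arrays 3 and 4 and between -1.99 and -1.68 on the other 4 valsartan arrays, against -2.06 to -1.59 on the high-dose arrays. The 2 high arrays thus stood apart from the other 10. Cdk1, the kinase that drives mitosis, was at 0.98 and 1.18 on those arrays and at -1.68 or lower on the other 4. Mcm4, a subunit of the replicative helicase, had the lowest adjusted p of the list at 0.0539, with a difference of 0.69 ± 0.18. Without high-dose arrays 1 and 2, Mcm4 (0.77) and its fellow subunit Mcm3 (1.29) were called higher and Cdc20, an activator of the anaphase-promoting complex, lower (-0.65), against 1.43% and 2.91% of all genes.

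Among immune lists, Cd74, the invariant chain of MHC class II, was the only 1 of 9 MHC class II genes called. It ran from -2.93 to -1.84 under high-dose SXC and from -4.70 to -3.12 under valsartan, where no array was well above background, and no fold can be given (adjusted p = 0.02, limma; with normexp a difference of -0.22, adjusted p = 0.683). None of 17 macrophage markers was called, 14 of the 17 differences were negative, and the summed level of the defining macrophage markers was between 1.19 and 2.02 under high-dose SXC and between 1.02 and 1.72 under valsartan. The part of macrophage RNA in the Cd74 difference was not tested. Cd55, a complement regulator on cell surfaces, was called higher (adjusted p = 0.0437, limma) but was well above background on only 2 high-dose and 3 valsartan arrays and overlapped between the drugs. Its measured difference of 1.66 ± 0.41, which rests on those dim values, became 0.87 (adjusted p = 0.188) with normexp and 1.14 (adjusted p = 0.401) within the shared scan day. Tnni2, fast skeletal troponin I, was the only 1 of 17 striated muscle genes called, at -0.81 ± 0.17 (adjusted p = 0.0213, limma). It was called in 8 of the 12 fits that left out 1 array. Its difference was -0.56 (adjusted p = 0.281) within the shared scan day and -0.61 (0.155, limma) with normexp. Tbxas1, thromboxane synthase, was the only 1 of 16 prostanoid genes called (lower, adjusted p = 0.0179, limma). It was well above background on 4 high-dose arrays and on no valsartan array, so no fold can be given, and with normexp its measured difference was -0.05 (adjusted p = 0.909). None of 12 red cell genes was called. The beta-globin gene Hbb-b1 stood at 7.89 ± 0.72 in saline (SD, n = 8), at 1.51 ± 0.74 under high-dose SXC and at 0.69 ± 1.19 under valsartan (SD, n = 6 each), with an interval of -1.76 to 0.13 for the difference. Of the 40 lists, with a median of 17 genes tested, 31 held no call, and at the 1.01% called over all genes most lists of that size would hold none.

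**Figure D5:**
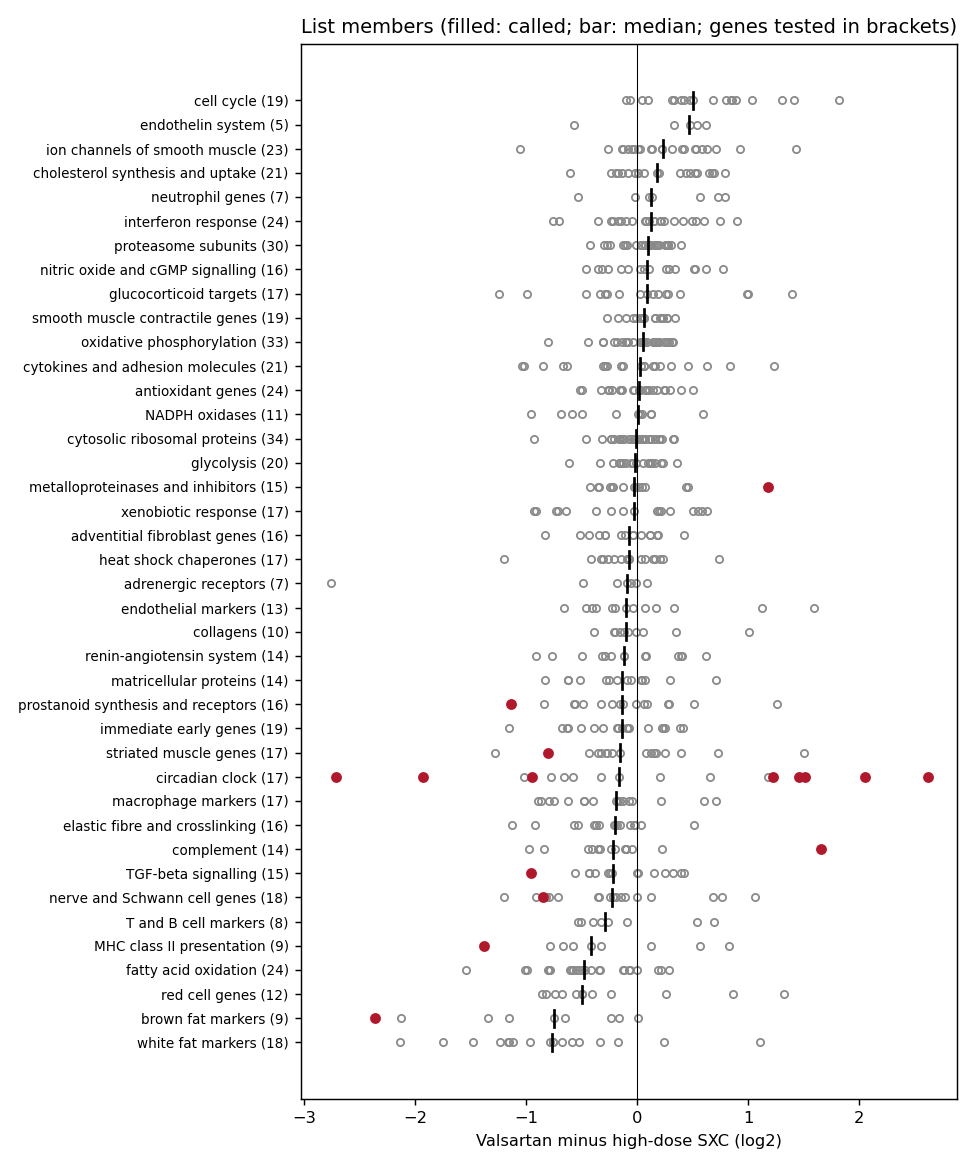
Log2 difference, valsartan minus high-dose SXC (horizontal axis), of each tested member of the 40 gene lists, with called members filled in red and a vertical bar at the median of each list. The number of genes tested stands in brackets. The clock list holds 8 of the filled points and spans from -2.72 to 2.62, and no other list holds more than 1.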

How the data were processed

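Total RNA of each aorta was labelled with Cy3 and scanned, per the labels' protocols. Per the file headers and the submitters' processing notes, the deposited scanner files were made with Agilent Feature Extraction 11.0.1.1, and the intensity used (processed signal) was background-corrected by that software. The deposited log2 values in the series' value table served as an alternative, and their normalization steps are not given in the sources used here.

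Spots with outlier flags and control spots were left out, spots of a probe were averaged, and levels are log2 processed signal minus the array's 75th percentile over 30367 gene probes. The 23744 probes that passed as well above background on 6 or more of the 26 arrays were tested with limma 3.58.1 (R 4.3.3), in 1 fit over all 26 arrays with a trended empirical Bayes prior, and p-values were adjusted by Benjamini-Hochberg over all of them. Symbols came from matching the accession given for each probe in the scanner files to RefSeq transcripts (1 symbol for 18005 probes, none for 12362). Symbols of the gene lists were updated through RefSeq synonyms. The brightest tested probe stood for a gene. The number of arrays limits the precision. Arrays of a group are separate rats, per the labels.

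Named genes were (a) the 12 largest differences in each direction among named genes called with and without high-dose arrays 1 and 2 and above background on all 6 arrays of the brighter drug, (b) up to 3 called members of each list and (c) 21 genes of interest; other genes in the text were chosen after their values were seen. Some genes that met these rules are not reported here. The comparison and the 40 lists were chosen with earlier results of these data known. Alternatives changed scaling, background correction, the dim-probe filter, the arrays in the fit and blocks for replicate number, slide, scan day and gain. Normexp was run on median signals with an offset of 50 because these files carry no mean signal. The procedure was tested on simulated data with independent noise and the same spread of a probe in every group. Those data held neither the unequal group spreads nor the correlation within slides, so that test cannot show their part in the calls.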

Additional observations from a re-analysis of the deposited data

Results flagged for a closer look

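Levels of the named genes were checked for single arrays far from the other 5 of their group by Dixon's ratio. Over 51 named genes and the share of probes above background, each tested in both drug groups, 7 groups held such an array. Chance flags about 1 in 20, here 5.2 groups, so the number is near that of chance. High-dose array 3 was far above the others for Pla2g7 (0.42, others -3.37 to -2.04) and far below them for Agtr1a (-2.74, others -1.61 to -1.03). High-dose array 1 was high for Myh11 (5.83, others 5.35 to 5.48) and high-dose array 6 was low for Il11 (-1.86, others -0.87 to -0.51). Valsartan array 6 was high for Npas2 (0.00, others -2.15 to -1.59), valsartan array 2 was high for Il11 (-1.20, others -2.48 to -2.11) and valsartan array 1 was low for Cry1 (-2.26, others -0.90 to -0.17).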

How the results depend on the processing

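The 232 called probes (38 higher, 194 lower, 16.4% higher) became 728 (163, 565; 22.4% higher) with quantile normalisation, 269 (60, 209) with the percentile over probes well above background on all 12 arrays, 450 (107, 343) with the authors' deposited log2 values, 5 (4, 1; 80.0% higher) with normexp, which moved the median of all probes from -0.05 to 0.14, 150 (33, 117) without the dim-probe filter and 16 (13, 3; 81.2% higher) among the 7400 probes well above background on all 12 arrays. They became 3 (2, 1) with the 12 arrays alone (Per2, Ciart and, lower, Vtcn1), where 2078 probes had an unadjusted p under 0.05. Slide as a random block gave 3 (3, 0), with 1815 at an unadjusted p under 0.05. Scan day as a fixed block gave 689 (488 lower; 29.2% higher) and the shared scan day 460 (92, 368). Gain as a block gave 1194 (376, 818; 31.5% higher), the fit without high-dose arrays 1 and 2 gave 1096 (346, 750; 31.6% higher; 199 of the 232 among them), array weights 387 (77, 310), and 2 settings chosen after seeing the data, the fit without the dimmest array of each group and the 10 lower-gain arrays alone, gave 803 (250, 553; 31.1% higher) and 4 (3, 1). Leaving out 1 array gave 84 (without high-dose array 5) to 652 (without high-dose array 3), 13 to 284 higher and 71 to 495 lower. Counts over 1.5 times away were 403 without high-dose array 1, 130 without 2, 108 without 4, 444 without 6, and without valsartan arrays 1, 2, 4, 5 and 6 they were 632, 503, 116, 105 and 88. The clock counts of 5 higher and 3 lower became 3 and 0 with normexp and with slide as a random block, and 2 and 0 with the 12 arrays alone and with the 10 lower-gain arrays. Among probes well above background on all 12 arrays they were 3 and 0, where 3 of the 8 called clock genes (Per2, Tef and Wee1) could be tested and each was called. Leaving out 1 array gave 5 to 6 and 3 to 4. The causes were not tested.

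None of the 34 called named genes changed sign in any setting run. They were still called in 31 (quantile), 31 (authors' values), 28 (percentile over detected probes), 24 (no filter), 4 (normexp: Per2, Ciart, Cry1 and Pmepa1), 19 (scan day), 17 (shared scan day), 33 (without high-dose arrays 1 and 2), 18 (replicate block), 3 (slide as a random block), 2 (the 12 arrays alone) and 2 (the 10 lower-gain arrays) cases. Genes of rule (a) had to be called with the same sign without high-dose arrays 1 and 2. The count of 33 and the signs in that fit were therefore largely fixed by the choice of genes. Among all 232 called probes, 30 changed sign with normexp and 1 with the authors' values, none of them called there. Among the named genes, signs changed in uncalled ones. Agtr1a became 0.21 (quantile), 0.02 (normexp), 0.17 (authors' values), 0.39 (scan day as block and shared scan day) and 0.08 (gain as block, without high-dose arrays 1 and 2, lower-gain arrays). With scan day and then with gain, in the same settings, Cma1 became -0.47 and -0.30, Col1a1 0.16 and 0.12 and Eln 0.02 and 0.13. Eln was also 0.02 without the dimmest arrays and with array weights, and Acta2 became 0.04 and Per1 0.11 with scan day. Nos3 became 0.07 (quantile), 0.27 (normexp) and 0.21 (authors' values), Myh11 -0.01 (detected probes) and -0.09 (normexp) and Per1 0.19 (normexp). Leaving out 1 array gave -0.22 to 0.32 for Cma1, -0.16 to 0.01 for Col1a1, -0.15 to 0.09 for Eln, -0.01 to 0.13 for Myh11 and -0.35 to 0.02 for Per1.

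With the replicate block 78 probes were called (18, 60). The shared numbers did not pair the arrays: same-numbered deviations correlated between -0.187 and 0.278, and 2 of 6 matched their own number best. Slide as a fixed block was not run, because each valsartan slide held only valsartan arrays. Signal over background limits the lower calls, since 53.6% of them were well above background on no valsartan array.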

Other observations

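Glucocorticoid targets held no call among 17 genes, where 1.01% of all genes were called. Their median difference was 0.09, with 10 differences positive and 7 negative. At an unadjusted p under 0.05, 2 were higher and 2 lower, against 6.76% and 9.05% of all genes. Fkbp5, the co-chaperone of the glucocorticoid receptor, ran from 0.65 to 2.48 under high-dose SXC and from 1.55 to 3.32 under valsartan, a difference of 1.39 ± 0.42 (adjusted p = 0.0956, limma), with saline at 3.62. Tsc22d3, which encodes the leucine zipper GILZ, ran from 0.74 to 2.24 and from 2.29 to 3.10 without overlap, a difference of 0.99 ± 0.26 (adjusted p = 0.0671, limma), with saline at 4.62. It was the only 1 of the 17 without overlap, against 0.94% of all genes. Hif3a and Pdk4 of the same list went the other way, at -1.24 and -0.99, and were not called. The hours of dosing differed between the drugs here too. These genes were chosen after their values were seen.

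Macrophage genes with the smallest adjusted p were Tyrobp, an adaptor of myeloid receptors, at -0.80 ± 0.20 (0.0538), Ctss, a lysosomal protease, at -0.90 ± 0.25 (0.078) and Lyz2, lysozyme, at -0.86 ± 0.25 (0.0891, limma). None of them was called. Scd, the desaturase of fatty acid synthesis, had the smallest adjusted p of the white fat list at 0.0705 and differed by -2.14 ± 0.58.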
